A study of Mus musculus with 6 samples.

Results

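The 42 genes described here encode proteins of mitosis: the cyclins and kinases that start it, condensins, centromere and kinetochore proteins, spindle motors, the spindle checkpoint and the machinery of cytokinesis. They were chosen by name from knowledge of the cell cycle, but with earlier results of these data known. All 42 of them were found by symbol among the 17191 genes of the deposited tables. Messenger RNA was sequenced from tumours of CT26, a mouse colon carcinoma line, implanted under the skin of BALB/c mice (female, 6 to 8 weeks of age). In 3 libraries the mice had been given the code-named compound TP-18 orally, 50 mg/kg each day over 3 weeks, and in the other 3 they had been given vehicle over the same time. Mice entered treatment at tumour volumes of 100 to 200 mm3. The labels name flow-sorted CD11b+F4/80+CD206+ macrophages in one place, CD11b+ cells from magnetic beads in another and the CT26 line itself in one more. Separate mice are not stated for the libraries of a group, so p-values here reflect only how far these samples spread, and that spread may be technical.

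Cells make these proteins mainly in G2 and M phase, after DNA has been copied. Cyclin-dependent kinase CDK1, bound to cyclin A or B, drives entry into mitosis. Kinetochores then attach chromosomes to spindle microtubules, and the spindle checkpoint holds back the anaphase-promoting complex until every chromosome is attached. The genes are transcribed together: in G0 and G1 the DREAM complex represses them, and in G2 the MuvB core with B-MYB and FOXM1 activates them. Both act through a short promoter element called CHR, often near CCAAT boxes bound by NF-Y. Tumour macrophages are known both to be replenished by monocytes and to divide in place.

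Library totals ran from 17135001 to 17597645 counts for TP-18 and from 16371128 to 17004480 for vehicle. Levels are given as CPM, counts relative to a library size scaled by TMM, a method that assumes most genes do not differ, or as the deposited FPKM, which divides by gene length and uses unscaled totals. The 3 sort markers were abundant in every library. Itgam, which encodes CD11b, had 815 to 1018 CPM in TP-18 and 802.5 to 1318 CPM in vehicle libraries. Mrc1, which encodes CD206, had 629 to 898 CPM in TP-18 and 720.1 to 1451 CPM in vehicle libraries. Adgre1, which encodes F4/80, had 108 to 256 CPM in TP-18 and 99.9 to 295 CPM in vehicle libraries.

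Some promoters are shown first, with the CHR and CCAAT elements named above. The genes were chosen by name and not by sequence, but as a class they were already known to be controlled through these elements. Matches here are therefore no independent evidence. RefSeq promoters on GRCm38.p6, reaching from 250 bases before to 50 bases after the annotated start, were matched by gene ID for 36 of the 42 genes, with 38 promoters in all. Ccna2, Aurkb, Incenp, Tpx2, Smc4 and Kif20a had no entry. The CHR was searched as TTTGAA and the CCAAT box as CCAAT, both on either strand. The promoters printed are those of the mitotic cyclin and kinase group that hold a CHR, and that of Kif18b, chosen after its values were seen because its fitted difference below was the largest. Capitals mark every CHR and CCAAT match, the latter as ATTGG where it lies on the other strand. Ccnb2, for cyclin B2, lies on the minus strand at chr9:70421505-70421804. Cdk1, for the mitotic kinase itself, lies on the minus strand at chr10:69352863-69353162. Plk1, for Polo-like kinase, lies on the plus strand at chr7:122159185-122159484. Aurka, for the spindle pole kinase Aurora A, lies on the minus strand at chr2:172370521-172370820. Kif18b, for a kinesin that shortens astral microtubules, lies on the minus strand at chr11:102925075-102925374.
Ccnb2: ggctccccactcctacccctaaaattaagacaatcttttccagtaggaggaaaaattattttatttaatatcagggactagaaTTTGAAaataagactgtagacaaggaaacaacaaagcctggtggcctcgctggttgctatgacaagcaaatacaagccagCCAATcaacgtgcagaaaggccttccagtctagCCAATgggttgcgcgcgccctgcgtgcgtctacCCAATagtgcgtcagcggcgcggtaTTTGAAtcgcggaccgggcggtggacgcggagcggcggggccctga
Cdk1: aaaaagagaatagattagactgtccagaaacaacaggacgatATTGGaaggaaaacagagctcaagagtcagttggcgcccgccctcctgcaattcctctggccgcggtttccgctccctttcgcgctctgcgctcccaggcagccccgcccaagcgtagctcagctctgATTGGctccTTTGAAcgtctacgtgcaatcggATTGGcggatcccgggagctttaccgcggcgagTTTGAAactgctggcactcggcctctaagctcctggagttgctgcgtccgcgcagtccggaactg
Plk1: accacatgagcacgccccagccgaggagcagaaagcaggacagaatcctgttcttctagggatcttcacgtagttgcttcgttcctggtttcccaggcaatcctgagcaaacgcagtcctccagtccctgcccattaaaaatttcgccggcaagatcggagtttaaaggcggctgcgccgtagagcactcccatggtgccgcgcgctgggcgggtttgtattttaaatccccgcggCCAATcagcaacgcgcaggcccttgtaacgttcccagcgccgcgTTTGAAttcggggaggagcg
Aurka: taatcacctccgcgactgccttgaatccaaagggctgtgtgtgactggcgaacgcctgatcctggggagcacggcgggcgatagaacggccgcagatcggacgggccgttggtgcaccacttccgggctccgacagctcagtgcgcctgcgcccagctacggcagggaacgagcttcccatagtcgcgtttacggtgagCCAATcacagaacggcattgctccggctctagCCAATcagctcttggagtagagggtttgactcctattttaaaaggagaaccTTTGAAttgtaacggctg
Kif18b: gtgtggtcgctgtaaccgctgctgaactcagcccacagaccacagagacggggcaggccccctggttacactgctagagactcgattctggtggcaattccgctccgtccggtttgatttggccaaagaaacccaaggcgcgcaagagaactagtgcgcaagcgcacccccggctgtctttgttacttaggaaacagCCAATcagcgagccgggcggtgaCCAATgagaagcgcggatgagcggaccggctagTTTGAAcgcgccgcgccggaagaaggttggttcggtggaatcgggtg

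In Ccnb2 the CHR nearest the start began at position 5, counted from 1 at the first transcribed base with negative numbers before it, and 3 CCAAT boxes began at -87, -54 and -21. In Cdk1 CHRs began at -71 and -15, with CCAAT boxes at -208, -80 and -48. Plk1 had 1 CHR at 31 and 1 CCAAT box at -14, Aurka 1 CHR at 33 and CCAAT boxes at -51 and -19, and Kif18b 1 CHR at 4 and CCAAT boxes at -53 and -30. Of the other 2 genes of the cyclin and kinase group with a promoter, Ccnb1 held CCAAT boxes at -99 and -67 and Nek2 at -26 and 8, and neither window held the letters TTTGAA.

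Over all 38 promoters, 31 (81.6%) held a CHR, against 12.3% of 12945 promoters of tested genes and 17.9% of all 32851 promoters. A CCAAT box was in 30 (78.9%), against 37.7% for tested genes and 37.4% overall. Both together were in 26 (68.4%), against 5.01% for tested genes and 6.95% overall. A CHR with at least 2 CCAAT boxes was in 17 (44.7%), against 1.85% for tested genes and 2.09% overall. The E2F element, searched as TTTCCCGC or TTTGGCGC, was in 2 promoters, those of Ncapg and Kif15 (5.26%, against 2.81% for tested genes and 1.56% overall). TATAAA was in 1, that of Kif2c (2.63%, against 7.39% for tested genes and 13.6% overall). The Kif2c window, chr4:117178723-117179022 on the minus strand, lies inside the gene as GENCODE M21 annotates it, chr4:117159639-117182639. These matches describe letters in a window and do not show binding.

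**Figure D1:**
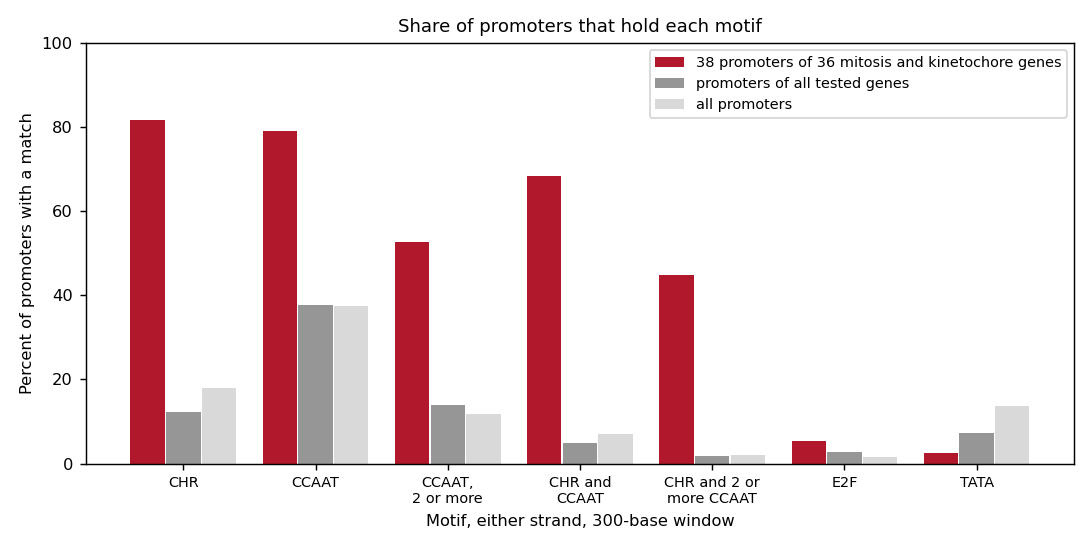
Percent of 300-base RefSeq promoters with a match to each motif on either strand, for 38 promoters of the mitosis and kinetochore genes (red), promoters of all tested genes (dark grey) and all promoters (light grey). The CHR is in 81.6% of the red set against 12.3% of the dark grey set, and TATA is lower in the red set than in both others.

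The comparison of TP-18 with vehicle asked how the compound changed the cells of these tumours. All 42 genes had a higher mean in TP-18 than in vehicle libraries, with a median log2 fold change of 0.72, against 0.02 over all 12721 tested genes. The fitted changes ran from 0.37 for Smc4, a 1.29-fold difference, to 1.04 for Kif18b, a 2.05-fold difference. A positive log2 fold change was found in 52.6% of tested genes, and one above 0.5 in 36 of the 42, against 13.5% of tested genes. None of the 42 passed edgeR's quasi-likelihood test after Benjamini-Hochberg adjustment over all tested genes (adjusted p = 0.141 to 0.493), where 0.11% of tested genes passed in either direction and 0.0236% were higher. At an unadjusted p under 0.05 there were 25, all higher, against 7.56% of tested genes that were higher at that level. That number was 12 without TP-18 1, 39 without TP-18 2 and 9 without TP-18 3. It was 31 without vehicle 1, 12 without vehicle 2 and 9 without vehicle 3, and 38 with library totals in place of TMM. The share of all tested genes at that level was not taken in these refits or with limma-voom. With library totals the median over all tested genes was 0.20. DESeq2 called 7 higher (Cenpf, Kif11, Kif18b, Kif20a, Kif20b, Kif2c and Nek2), against 1.5% of its tested genes called higher, and limma-voom called 0 with 22 at an unadjusted p under 0.05. The members share cells and vary together, so these counts are not independent pieces of evidence. All 42 passed the filter on low counts, with 136 to 9675 counts per gene and library.

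The genes tended to be high or low in the same libraries, though not all in 1 order. TP-18 3 was the highest library for 42 of 42 genes, against 19.0% of tested genes. Vehicle 3 was the lowest for 36, against 23.1% of tested genes, and vehicle 2 for the other 6, namely Mki67, Cenpe, Cenpf, Kif18b, Incenp and Espl1 (20.7% of tested genes). The pair, TP-18 3 highest and vehicle 3 lowest, held for 36 genes, against 7.85% of tested genes. As the mean over the genes of log2 CPM minus each gene's own mean, the libraries lay at 0.46, -0.12 and 0.74 for TP-18 1, 2 and 3 and at 0.01, -0.33 and -0.75 for vehicle 1, 2 and 3. TP-18 2 was thus below vehicle 1, and the groups overlapped. The order of that mean was TP-18 3, TP-18 1, vehicle 1, TP-18 2, vehicle 2, vehicle 3, and 16 genes had exactly this order, against 1.41% of tested genes.

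**Figure D2:**
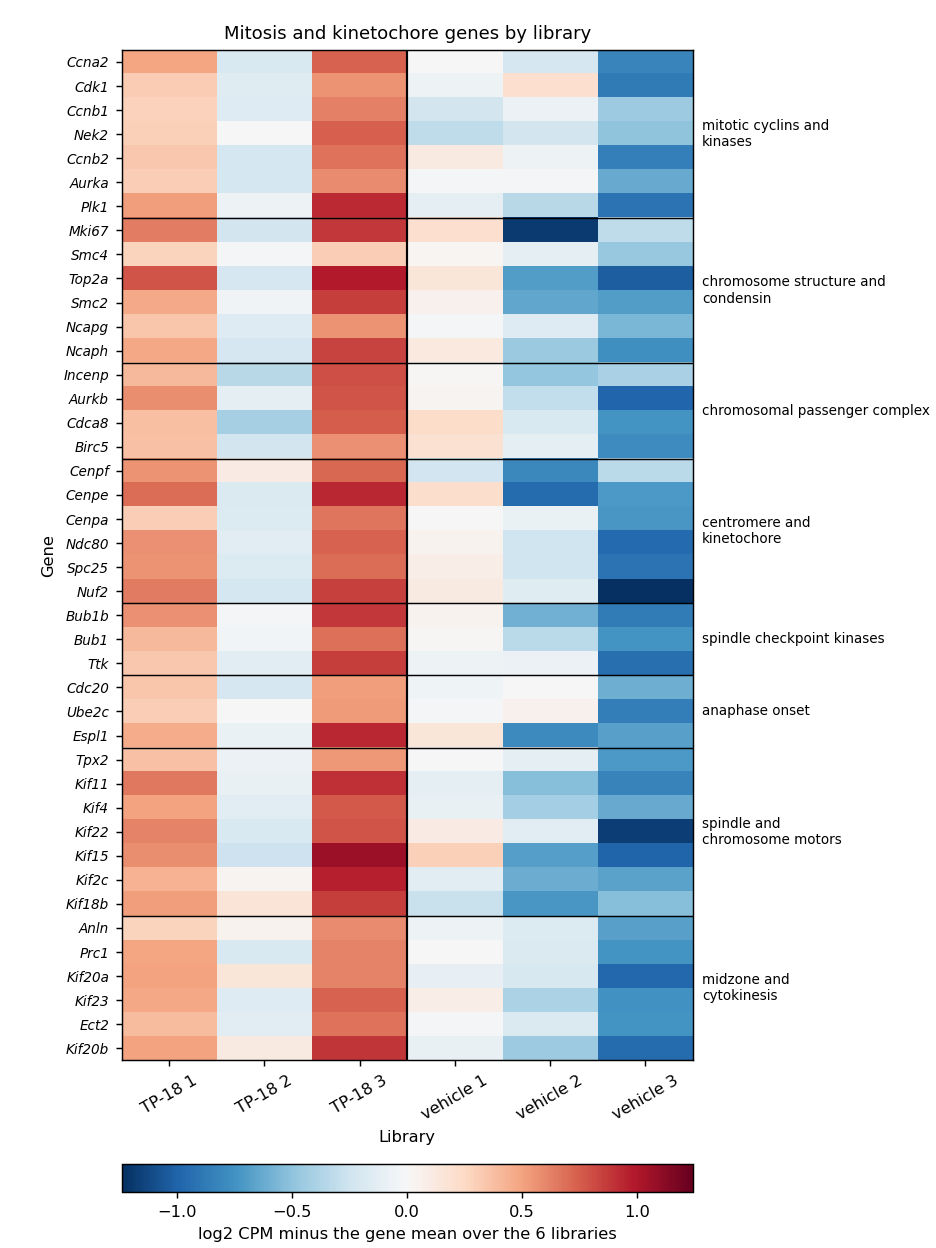
Deviation of log2 CPM from a gene's average over the 6 libraries (colour), for each of the 42 genes (rows, grouped by role) and each library (columns, TP-18 left of the line and vehicle right). The TP-18 3 column is the highest in all 42 rows and vehicle 3 the lowest in 36, while TP-18 2 and vehicle 1 lie between them.

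The spread inside each group was of the same size as the difference between the groups. TP-18 1 and TP-18 3 were both above TP-18 2 for all 42 genes, by medians of 0.55 and 0.88 on the log2 scale. Vehicle 1 was above vehicle 3 for all 42, by a median of 0.81. Between the group extremes, TP-18 2 exceeded vehicle 1 in 11 genes, with a median log2 ratio of -0.15 over the 42. The pooled within-group SD of log2 CPM had a median of 0.44 for these genes and 0.26 for all tested genes. The highest library exceeded the lowest by 1.71-fold to 4.26-fold, with a median of 2.90-fold, against 1.73-fold for all tested genes with no zero. In 9 genes every TP-18 library was above every vehicle library: Nek2, Plk1, Cenpf, Kif11, Kif18b, Kif2c, Kif20a, Kif20b and Anln. Such a separation upwards was found in 11.6% of tested genes. On the deposited FPKM values, which are not TMM-scaled, it held for 20 of the 42 and 23.5% of tested genes. In bulk RNA, differences in the share of cells in G2 and M, in the mix of cells and in each RNA per cell cannot be told apart.

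Among the mitotic cyclins and kinases the median log2 fold change was 0.53. An unadjusted p under 0.05 was found for 4 of the 7, against 7.56% of tested genes that were higher at that level. Ccna2, for cyclin A2, which acts in S phase and early mitosis, had 91.9, 57.1 and 108.7 CPM in TP-18 1, 2 and 3, against 65.0, 56.7 and 36.9 CPM in vehicle 1, 2 and 3. TP-18 2 was level with vehicle 2 and lay below vehicle 1, so the groups overlapped (log2 fold change 0.70 ± 0.28 SE, edgeR adjusted p = 0.287). Cdk1 had 69.0, 49.9 and 81.6 CPM in TP-18, against 53.2, 64.2 and 30.2 CPM in vehicle libraries. Here vehicle 2, not vehicle 1, was the highest vehicle library, and the fitted change of 0.44 ± 0.29 was among the smallest of the 42. Nek2, a kinase that separates centrosomes, had 62.3, 51.2 and 85.2 CPM in TP-18, against 40.8, 43.4 and 36.1 CPM in vehicle libraries. The 3 vehicle values lay close together and below every TP-18 value, with a log2 fold change of 0.72 ± 0.20 (edgeR adjusted p = 0.196). Plk1, which acts from centrosome maturation to cytokinesis, was also separated, at 35.7, 23.8 and 47.3 CPM in TP-18, against 22.9, 19.6 and 13.2 CPM in vehicle libraries. Its TP-18 2 value lay only just above that of vehicle 1. Ccnb1 and Ccnb2, the cyclin B partners of CDK1, and Aurka had log2 fold changes of 0.53, 0.52 and 0.45, with overlapping groups.

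Of the genes that organise chromosomes, Mki67 (chr7:135689784-135716361, minus strand, GRCm38) had the highest CPM. Mki67, for the Ki-67 protein that coats mitotic chromosomes and marks cycling cells, had 447, 246 and 528 CPM in TP-18, against 331, 126.5 and 232 CPM in vehicle libraries. Its lowest library was vehicle 2, and TP-18 2 lay below vehicle 1 (log2 fold change 0.82 ± 0.39, edgeR adjusted p = 0.339). Top2a (chr11:98992943-99024189, minus strand), the topoisomerase that untangles sister DNA, had 289, 146 and 333 CPM in TP-18, against 187, 104 and 82.7 CPM in vehicle libraries. The groups overlapped through TP-18 2 alone, and its log2 fold change of 1.04 ± 0.38 had an edgeR adjusted p = 0.255. The condensins, which compact chromosomes, include the Smc2 and Smc4 subunits, and no test was made between them. Smc2 had 82.3, 57.5 and 107.3 CPM in TP-18, against 61.7, 38.1 and 36.7 CPM in vehicle libraries, a log2 fold change of 0.86 ± 0.28. Smc4, its partner in the same core dimer, had 236, 190.9 and 240.2 CPM in TP-18, against 197.5, 179.5 and 140.3 CPM in vehicle libraries, a log2 fold change of 0.37 ± 0.17. Smc4 spanned 1.71-fold over the libraries and Smc2 2.92-fold. The condensin I subunits Ncapg and Ncaph had log2 fold changes of 0.51 and 0.75.

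The chromosomal passenger complex, in which Aurora B corrects faulty attachments, had a median log2 fold change of 0.56. Aurkb had 61.3, 37.96 and 70.7 CPM in TP-18, against 42.1, 33.3 and 20.8 CPM in vehicle libraries, a log2 fold change of 0.82 ± 0.31 (edgeR adjusted p = 0.256). Incenp, the scaffold of the complex, had 104.4, 62.4 and 137.6 CPM in TP-18, against 79.7, 56.5 and 59.9 CPM in vehicle libraries. In both genes TP-18 2 was below vehicle 1. Birc5, for survivin, and Cdca8, for borealin, had log2 fold changes of 0.45 ± 0.29 and 0.50 ± 0.33, and Cdca8 had the largest adjusted p of the 42.

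For centromere and kinetochore genes the median log2 fold change was 0.79. Cenpf (chr1:189640606-189688086, minus strand), a large protein of the outer kinetochore, had 151, 110.3 and 168.5 CPM in TP-18, against 87.2, 59.3 and 81.7 CPM in vehicle libraries. All TP-18 libraries were above all vehicle libraries, and the log2 fold change of 0.91 ± 0.21 had an edgeR adjusted p = 0.153. Cenpe, a kinesin that carries chromosomes to the spindle equator, had 110.3, 60.4 and 130.2 CPM in TP-18, against 79.6, 35.2 and 41.5 CPM in vehicle libraries. Its fitted change of 0.94 ± 0.37 was of like size, but the groups overlapped (edgeR adjusted p = 0.278). Ndc80, Nuf2 and Spc25 encode parts of the NDC80 complex, the main microtubule receptor of the kinetochore. Per gene length, Ndc80 had 21.9, 13.6 and 24.7 FPKM in TP-18, against 13.9, 10.98 and 6.63 FPKM in vehicle libraries. Spc25 had 20.4, 12.4 and 22.8 FPKM in TP-18, against 13.4, 10.3 and 6.44 FPKM in vehicle libraries. Nuf2 had 14.1, 7.83 and 16.5 FPKM in TP-18, against 8.91, 7.23 and 3.35 FPKM in vehicle libraries. All 3 kept the same order of libraries on this scale. On the CPM scale Nuf2 departed from it, with TP-18 2 at 18.2 CPM below vehicle 2 at 19.2 CPM. Nuf2 also had the widest span of the 42 on the CPM scale, at 4.26-fold. Cenpa, the histone H3 variant that marks the centromere, had a log2 fold change of 0.54 ± 0.26.

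The 3 checkpoint kinase genes had log2 fold changes of 0.70 to 0.94. Bub1b, for the BUBR1 subunit of the checkpoint complex, had 75.4, 50.4 and 93.5 CPM in TP-18, against 52.4, 33.6 and 27.8 CPM in vehicle libraries. Bub1 had 52.8, 38.9 and 64.1 CPM in TP-18, against 40.4, 31.7 and 23.9 CPM in vehicle libraries. In both, TP-18 2 was just under vehicle 1 and above the other 2 vehicle libraries. Ttk, for the kinase MPS1 that starts checkpoint signalling, had a log2 fold change of 0.71 ± 0.32.

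The genes that act at anaphase onset included the most abundant members per length. Ube2c, the ubiquitin-conjugating enzyme of the anaphase-promoting complex, had the highest mean FPKM of the 42, at 61.2, against a median of 14.8 FPKM over the 42. Its levels were 66.8, 53.9 and 77.7 CPM in TP-18, against 53.1, 55.8 and 29.7 CPM in vehicle libraries, with a log2 fold change of 0.52 ± 0.25. Cdc20, the activator of that complex, had 83.7, 57.2 and 94.6 CPM in TP-18, against 63.8, 66.5 and 43.3 CPM in vehicle libraries. TP-18 2 lay below both vehicle 1 and vehicle 2 for Cdc20 (log2 fold change 0.44 ± 0.23, edgeR adjusted p = 0.396). Espl1, for separase, the protease that cuts cohesin, had 60.8, 41.7 and 84.8 CPM in TP-18, against 49.0, 25.7 and 27.7 CPM in vehicle libraries. Its fitted change of 0.87 ± 0.33 was the largest of the 3.

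Spindle and chromosome motors had the highest median log2 fold change of the role groups, at 0.91. Kif18b (chr11:102905529-102925124, minus strand) had 25.4, 19.8 and 32.3 CPM in TP-18, against 14.6, 10.8 and 12.3 CPM in vehicle libraries. Every TP-18 library was above every vehicle library, with a log2 fold change of 1.04 ± 0.23 and an edgeR adjusted p = 0.141, the smallest of the 42. Kif11, the motor that pushes spindle poles apart, had 72.8, 43.5 and 87.0 CPM in TP-18, against 43.1, 32.3 and 26.1 CPM in vehicle libraries. TP-18 2 cleared vehicle 1 by a narrow margin there (log2 fold change 1.00 ± 0.28, edgeR adjusted p = 0.201). Tpx2, which nucleates spindle microtubules and activates Aurora A, had 131, 97.1 and 148.6 CPM in TP-18, against 102, 94.9 and 62.3 CPM in vehicle libraries. Its log2 fold change of 0.54 ± 0.23 was the smallest of the group. Kif2c, a microtubule depolymerase, Kif15, Kif4 and Kif22, which move spindles and chromosome arms, had log2 fold changes of 0.98, 0.91, 0.79 and 0.77.

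The midzone and cytokinesis genes were the role group in which all 6 had an unadjusted p under 0.05 and the summed CPM of the groups did not overlap. Over all tested genes 7.56% were higher at that level. Taken singly, 3 of the 6 genes were separated, against 11.6% of tested genes separated upwards. The sums were 642.5, 479.1 and 755 CPM in TP-18, against 472, 416.5 and 285 CPM in vehicle libraries. TP-18 2 and vehicle 1 were nonetheless nearly level. Anln, for the actin-binding anillin of the cleavage furrow, had 217, 184 and 269 CPM in TP-18, against 171, 159 and 112 CPM in vehicle libraries (log2 fold change 0.60 ± 0.21). Prc1, which bundles midzone microtubules, had 133, 82.6 and 144 CPM in TP-18, against 94.5, 83.1 and 56.5 CPM in vehicle libraries. Kif20b, a kinesin of late cytokinesis, had 33.5, 25.7 and 43.9 CPM in TP-18, against 22.2, 17.4 and 12.3 CPM in vehicle libraries. Kif20b was separated between the groups (log2 fold change 0.99 ± 0.27, edgeR adjusted p = 0.197), and Prc1 was not. Kif20a, Kif23 and Ect2, which act at the midzone and in the onset of furrowing, had log2 fold changes of 0.81, 0.71 and 0.64.

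**Figure D3:**
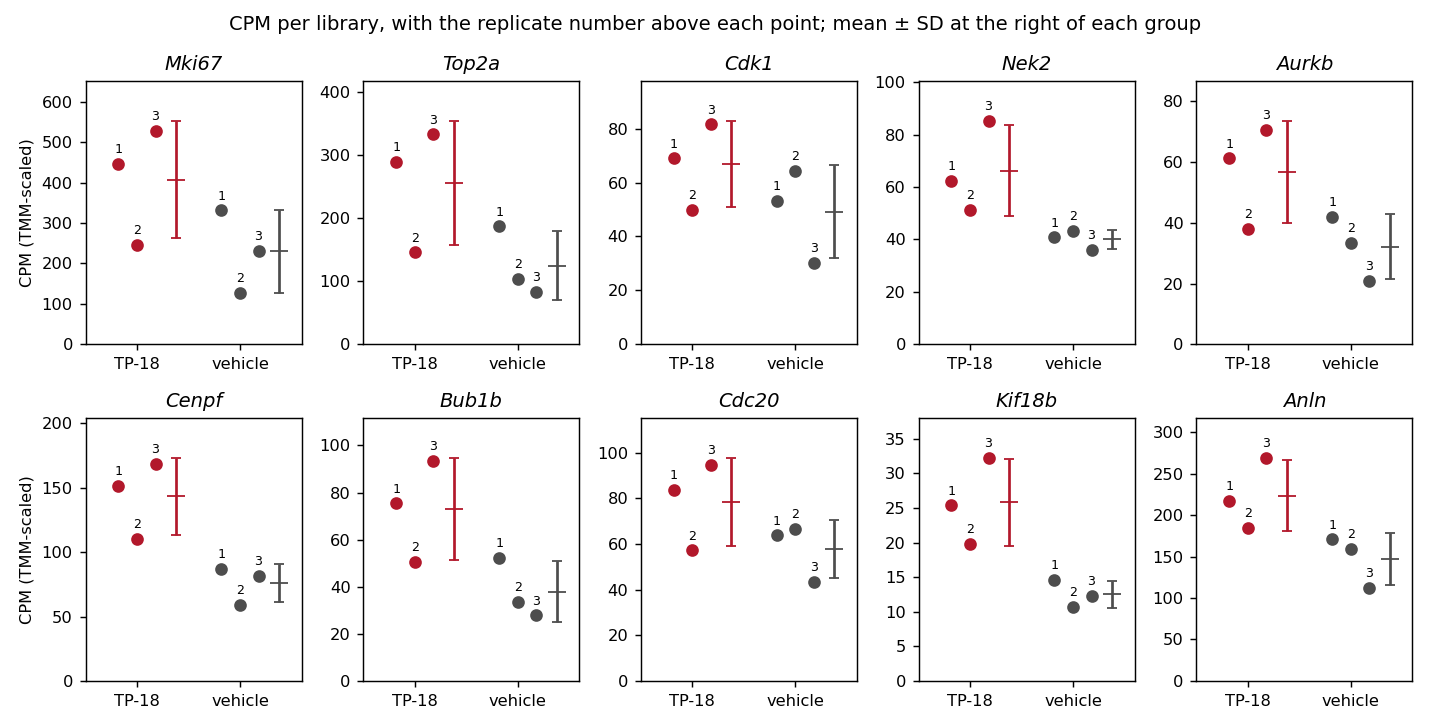
TMM-scaled CPM of 10 of the genes in each library, TP-18 left (red) and vehicle right (grey), with replicate numbers above the points and the mean ± SD (n = 3) beside each group. TP-18 2 is the lowest TP-18 point in every panel; the groups separate for Nek2, Cenpf, Kif18b and Anln and overlap for the other 6.

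The genes did not all share 1 pattern inside the vehicle group. Vehicle 1 was above vehicle 2 in 36 of the 42 genes, against 49.7% of tested genes. The 6 exceptions were Cdk1, Ccnb1, Nek2, Aurka, Cdc20 and Ube2c, of which the first 4 are in the cyclin and kinase group and the last 2 act at anaphase onset. By contrast Mki67, at 126.5 CPM in vehicle 2 and 232 CPM in vehicle 3, and Cenpe, Cenpf, Espl1, Incenp and Kif18b were lowest in vehicle 2.

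**Figure D4:**
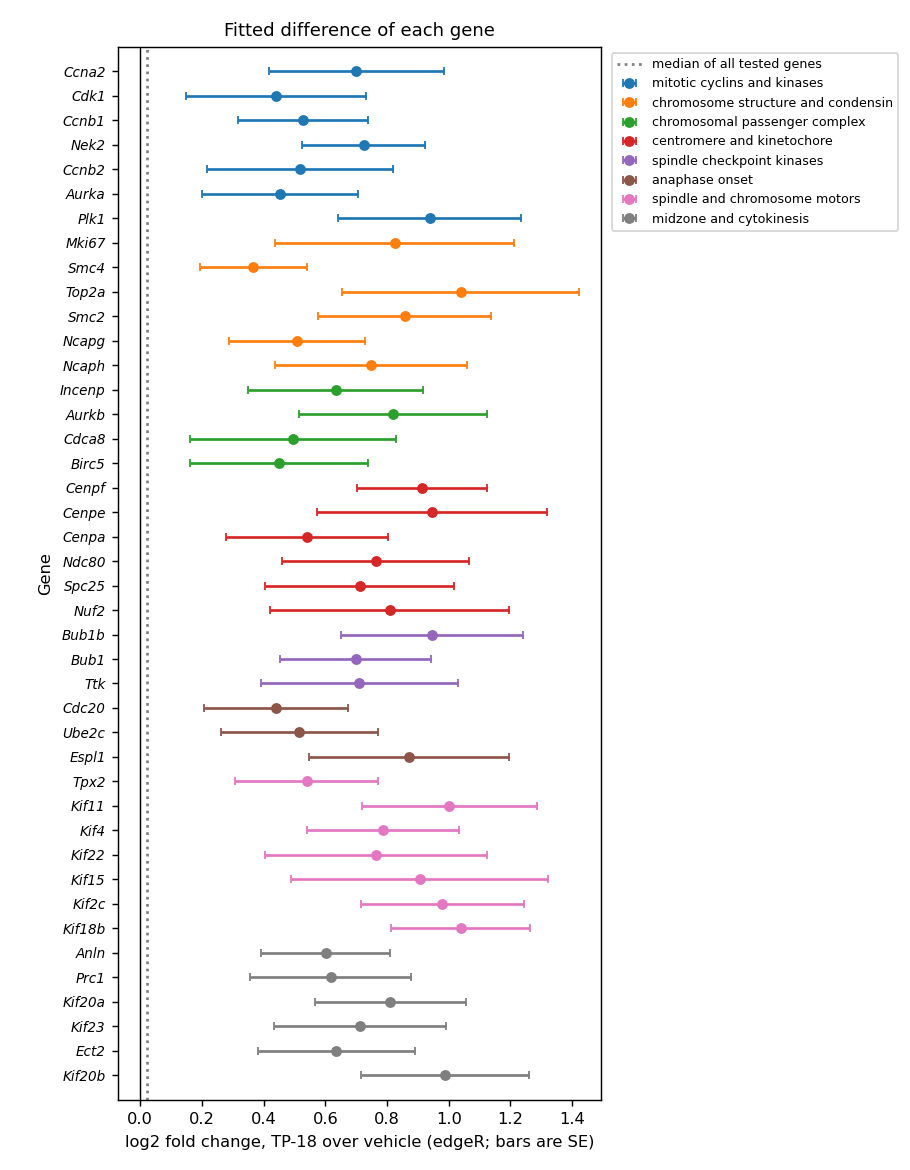
Log2 fold change of TP-18 over vehicle from edgeR for each of the 42 genes, coloured by role, with SE bars. The solid line is 0 and the dotted line the median of all tested genes, 0.02. All points lie right of both lines, between 0.37 and 1.04, and no gene passed the adjusted test.

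Other genes of mitosis were read from a list of 71. Of these 65 had positive and 6 negative log2 fold changes, with a median of 0.57, 33 were higher and 0 lower at an unadjusted p under 0.05, and 0 passed in edgeR's adjusted test. Mastl, for the Greatwall kinase that holds down PP2A in mitosis, had 39.9, 36.01 and 40.8 CPM in TP-18, against 20.2, 21.7 and 23.9 CPM in vehicle libraries. Both groups were tight and well apart, with an edgeR adjusted p = 0.0982 and a log2 fold change of 0.83 ± 0.14. Racgap1, a partner of Kif23 at the midzone, had 214, 146 and 237 CPM in TP-18, against 149.5, 147 and 91.0 CPM in vehicle libraries. Ncaph2, of condensin II, had 191, 169.7 and 205 CPM in TP-18, against 169.7, 182 and 149 CPM in vehicle libraries. The 6 on the negative side were Wee1, the kinase that inhibits CDK1, with the largest at -0.31, and Zwint, Mis12, Cenpt, Cenpc1 and Mis18a. Of 16 anaphase-promoting complex genes 12 were positive, with a median of 0.08, and of 10 cohesin genes 8 were positive, with a median of 0.11. None of either list passed, and 0 and 1 were higher at an unadjusted p under 0.05, against 7.56% of tested genes. The 1 was Rad21, the cleavable cohesin subunit, at 295, 264 and 308 CPM in TP-18, against 239.7, 214 and 212 CPM in vehicle libraries. Anapc5, the most abundant gene of the complex, had 337, 277 and 336 CPM in TP-18, against 334, 331 and 295 CPM in vehicle libraries.

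The regulators of these promoters were read from a list of 23 DREAM, MuvB, NF-Y and E2F genes, of which 17 were positive, with a median of 0.24, and 0 passed the edgeR test. At an unadjusted p under 0.05, 6 were higher, against 7.56% of tested genes, and 2 were lower. The share of tested genes that were lower at that level was not taken. E2f7, an E2F repressor of cell cycle genes, had 48.3, 35.0 and 49.8 CPM in TP-18, against 24.1, 20.6 and 21.0 CPM in vehicle libraries (log2 fold change 1.02 ± 0.18, edgeR adjusted p = 0.0982). Foxm1, the activator of G2 and M genes, had 139, 131 and 167 CPM in TP-18, against 112, 112 and 105 CPM in vehicle libraries. Every TP-18 library was above every vehicle library for both genes. Mybl2, for B-MYB, had 27.3, 19.6 and 31.8 CPM in TP-18, against 20.7, 17.1 and 17.1 CPM in vehicle libraries, with TP-18 2 below vehicle 1. Rbbp4, a subunit of the MuvB core, had 180, 154 and 172 CPM in TP-18, against 159, 172 and 144 CPM in vehicle libraries. The 2 lower ones were Nfya, a subunit of NF-Y, at 74.04 ± 9.14 CPM in TP-18 and 104 ± 7.35 CPM in vehicle libraries (SD, n = 3 each), and Lin54, the MuvB subunit that contacts the CHR, at 45.1 ± 3.89 CPM in TP-18 and 57.1 ± 6.89 CPM in vehicle libraries. Their edgeR adjusted p were 0.202 and 0.294.

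Genes of S phase were also highest on average in TP-18 3, TP-18 1 and vehicle 1 and lowest in vehicle 3, with TP-18 2 below vehicle 2. Of 42 on the replication list 39 were positive, with a median log2 fold change of 0.49 and a range of -0.10 to 1.09. At an unadjusted p under 0.05, 12 were higher, against 7.56% of tested genes, and 0 passed the adjusted edgeR test. Pcna, the sliding clamp of replication, had 283, 212 and 293 CPM in TP-18, against 264, 266.5 and 207 CPM in vehicle libraries. Mcm6, of the replicative helicase, had 178, 95.99 and 179.9 CPM in TP-18, against 126, 104 and 88.7 CPM in vehicle libraries. Rfc1, the large subunit of the clamp loader, had 103, 87.3 and 107 CPM in TP-18, against 73.5, 60.9 and 57.9 CPM in vehicle libraries, with the groups apart (edgeR adjusted p = 0.155). The mean level of the mitotic genes minus that of the replication genes, which no scaling of libraries can move, was 0.06, 0.16 and 0.16 on the log2 scale in TP-18 1, 2 and 3. It was -0.02, -0.14 and -0.21 in vehicle 1, 2 and 3, so that on this measure the groups did not overlap. It was 1 of 3 such differences between lists that were computed, none of them tested, and the groups overlapped in the other two. The mitotic genes minus the other mitosis genes gave 0.11, 0.01 and 0.16 in TP-18 1, 2 and 3 and 0.06, -0.15 and -0.20 in vehicle 1, 2 and 3. The replication genes minus the G1 list gave 0.15, -0.18 and 0.44 in TP-18 1, 2 and 3 and -0.06, 0.02 and -0.37 in vehicle 1, 2 and 3.

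Of 16 G1 cyclins, CDKs and CDK inhibitors 11 were positive, with a median of 0.10, and 0 passed the edgeR test. At an unadjusted p under 0.05, 4 were higher, against 7.56% of tested genes, and 1 was lower, for which no share was taken. Ccnd1, for cyclin D1, had 458, 448 and 592 CPM in TP-18, against 507, 378 and 334 CPM in vehicle libraries. Cdkn1a, for the inhibitor p21, was the 1 lower gene, at 423, 439 and 387 CPM in TP-18, against 478, 514 and 733.5 CPM in vehicle libraries (log2 fold change -0.47 ± 0.19, edgeR adjusted p = 0.286). Cdkn2d, for the inhibitor p19 of CDK4 and CDK6, had 30.9, 34.3 and 31.5 CPM in TP-18, against 22.9, 21.3 and 19.1 CPM in vehicle libraries (edgeR adjusted p = 0.153). The groups did not overlap in either of the inhibitors.

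**Figure D5:**
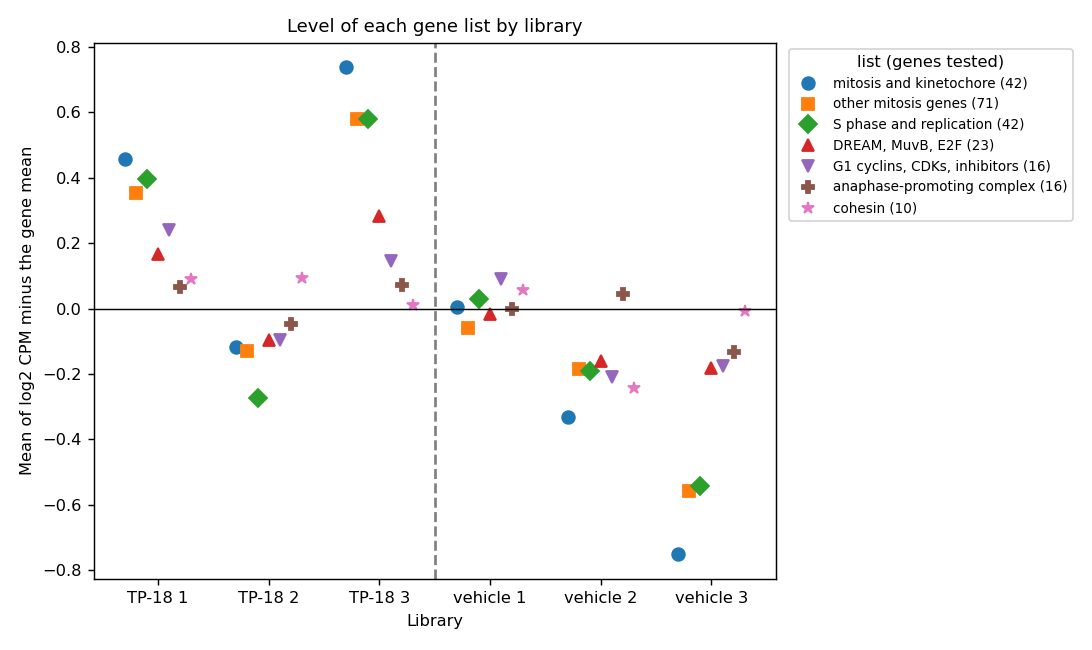
Average deviation of log2 CPM from each gene's own mean, per library, for the 42 mitosis and kinetochore genes and 6 other lists, TP-18 left of the dashed line and vehicle right. The mitotic genes lie at 0.74 in TP-18 3 and at -0.75 in vehicle 3, and the anaphase-promoting complex and cohesin lists stay between -0.24 and 0.09.

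Among the genes most like the mean of the 42 over the 6 libraries, out of 10273 other genes with at least 5 CPM on average, were Exo1, Spag5, Hells, Tmem18, Ung, Cchcr1, Rfc3, Dlgap5 and Depdc1b. Spag5 and Dlgap5 are on the list of other mitosis genes and Rfc3 is on the replication list. Exo1, an exonuclease of DNA repair, had 7.22, 4.56 and 9.82 CPM in TP-18, against 4.91, 3.90 and 2.65 CPM in vehicle libraries. Spag5, for astrin of the spindle, had 62.0, 39.1 and 77.0 CPM in TP-18, against 40.0, 28.8 and 20.6 CPM in vehicle libraries. Both kept the order of libraries of the mitotic mean.

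Markers of the cell types that the sample could hold were summed per library to set beside these values. The 6 monocyte markers, led by Chil3 and F13a1, summed to 350.3, 1219 and 326 CPM in TP-18 and 324.5, 1627 and 1207 CPM in vehicle libraries. The 3 libraries with the lower monocyte sums, TP-18 1, TP-18 3 and vehicle 1, were the 3 with the highest mitotic level. How many of all tested genes split the libraries in this way was not counted, so the match cannot be set against a background. The 9 neutrophil markers in the tables, led by S100a8 and Mmp8, followed the same split, at 79.0, 184 and 99.2 CPM in TP-18 and 72.4, 260.1 and 113 CPM in vehicle libraries. The 11 T and NK cell markers in the tables summed to 21.4, 9.71 and 26.3 CPM in TP-18 and 33.8, 13.4 and 15.7 CPM in vehicle libraries, with Gzmb and Cd3e the most abundant. These sums were highest in TP-18 1, TP-18 3 and vehicle 1, the 3 libraries with the highest mitotic level. Defining T and NK cell genes were at 0 in some libraries, Cd8a, Cd3d and Cd8b1 in vehicle 2, Cd3g in TP-18 2, and Ncr1 in TP-18 2, vehicle 2 and vehicle 3. The part of these cells in the mitotic levels was not tested.

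Fibroblast markers, led by Col1a2 and Col3a1, were the list with the largest sums whose groups did not overlap. Over 10 genes they summed to 1864, 1630 and 1502 CPM in TP-18 and 1211, 885 and 748 CPM in vehicle libraries. Of the 10, 9 had a positive log2 fold change and 7 were higher at an unadjusted p under 0.05, against 7.56% of tested genes. Within TP-18 the fibroblast sums did not follow the mitotic order, since TP-18 3 had the lowest sum. Mast cell sums over 6 genes, led by Tpsb2 and Kit, were also apart, at 21.1, 33.2 and 10.7 CPM in TP-18 and 5.77, 5.35 and 3.31 CPM in vehicle libraries. The low sums of the 8 dendritic cell markers, led by Zbtb46 and Ccr7, were apart in the other direction, at 7.49, 6.35 and 8.68 CPM in TP-18 and 13.9, 9.31 and 14.9 CPM in vehicle libraries. Only 5 of these 8 passed the filter on low counts. Of the 5, 4 had a negative and 1 a positive log2 fold change, and the groups were apart in 1. The 11 epithelial and carcinoma markers in the tables, mostly Krt20 and Sox9, summed to 564, 571 and 296 CPM in TP-18 and 599, 711 and 500.4 CPM in vehicle libraries, with TP-18 3 the lowest of all. Sox9 was lower in TP-18, at 47.6, 45.5 and 41.6 CPM in TP-18 and 136, 168 and 145.5 CPM in vehicle libraries (log2 fold change -1.74 ± 0.14, edgeR adjusted p = 0.0137). Krt19 was at 0 in all but vehicle 2 and Cldn4 in all but TP-18 1. Epcam was at 0.05 to 0.38 CPM in TP-18 and 0.12 to 1.07 CPM in vehicle libraries, and Krt8 at 0.27 to 1.14 CPM in TP-18 and 0.68 to 1.57 CPM in vehicle libraries. The 12 macrophage markers, led by Apoe and C1qa, summed to 8422, 7044 and 9709 CPM in TP-18 and 14760, 7060 and 19430 CPM in vehicle libraries. Endothelial sums over 8 genes, led by Pecam1 and Plvap, were 179, 173 and 102 CPM in TP-18 and 33.5, 177 and 62.4 CPM in vehicle libraries. The 6 erythroid genes, led by Hbb-bs and Hba-a1, summed to 2.07 to 10.2 CPM in TP-18 and 9.72 to 83.0 CPM in vehicle libraries. The 6 B and plasma cell genes, led by Cd79b and Cd79a, summed to 6.52, 2.71 and 8.79 CPM in TP-18 and 3.93, 1.38 and 1.59 CPM in vehicle libraries. Their order was that of the mitotic mean except that vehicle 2 was below vehicle 3, but only 2 of the 6 genes passed the filter on low counts. No listed marker in the tables was at 0 in all 6 libraries, and the part of any of these cells in the mitotic levels was not tested.

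All 42 genes are annotated as protein-coding in GENCODE M21 on GRCm38. For 12 of them some exonic sequence is shared with another gene, and whether counting used strand is unknown. The share was 29.3% of the exonic bases of Kif20a (with Cdc23), 22.8% of Ube2c (Tnnc2), 15.1% of Kif4 (Pdzd11), 13.4% of Ncapg (Lcorl), 12.5% of Ccna2 (Exosc9) and 11.1% of Prc1 (Rccd1), all on opposite strands, and at most 7.09% in the other 6. If counting ignored strand, reads in these stretches could not be told apart between the partners. Cdc23 itself had 32.4 to 36.8 CPM in TP-18 and 25.5 to 29.9 CPM in vehicle libraries. Ccnb1, Ccnb2, Kif4 and Kif22 also have annotated pseudogenes that could take part of their reads.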

How the data were processed

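The authors deposited raw counts per gene and, in a second table, FPKM values, for 6 libraries. The deposited FPKM equal count over the library's total and 1 length per gene, checked on every gene. Fastp, HISAT2, HTSeq and GRCm38 are named, per the submitters' processing notes, and versions, settings and the annotation release were not given in the sources used here. Groups came from the treatment labels. The test was edgeR 4.0.16 (R 4.3.3) on the deposited counts (filterByExpr with a minimum count of 10 and total of 15, TMM, quasi-likelihood F-test without covariates, Benjamini-Hochberg over 12721 genes, threshold 0.05, two-sided). An SE is the absolute log2 fold change over the square root of F. List levels are means of log2 CPM with a prior count of 2.

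The test was tried on simulated data with the 6 libraries' means and sizes (12607 genes). It called 0 of 67 genes given a 1.5-fold change. At 2-fold it called 18 of 67, and at 4-fold 54 of 66. Of its 78 calls, 6 fell on unchanged genes. No 2 libraries agreed within sampling noise. Alternatives were RLE factors, library totals, 2 other filters, DESeq2 1.42.0, limma 3.58.1 (voom, log2(FPKM + 1) and log2(FPKM + 0.1)), a replicate block and each library left out; a GC and length trend (mgcv 1.9.3) was added after seeing the data. The genes and lists were chosen with earlier results of these data known. Named in full were Mki67, Top2a and, per role group, the 2 most abundant genes and the 1 with the smallest p; other members were named more briefly, and per other list the 2 most abundant and, for pathways, the 1 with the smallest p. Epcam, Krt8, Cd8a, Mybl2, Nfya, Lin54 and the 3 sort markers were added after their values were seen. Python 3.11.15 and matplotlib 3.10.9 made the figures. One gene among those most like the mean of the members is not reported here.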

Additional observations from a re-analysis of the deposited data

How the results depend on the processing

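Under all 16 alternatives all 42 genes kept a positive log2 fold change. Their median ran from 0.51 without TP-18 3 and 0.52 without vehicle 3 to 0.93 without TP-18 2, against 0.72 with all libraries. Only DESeq2 called any of the 42, with 7 higher; the cause was not tested. Every other alternative called 0, including each left-out library (0 to 0). Leaving out a library moved the number at an unadjusted p under 0.05 from 25 to 12 without TP-18 1, 39 without TP-18 2, 9 without TP-18 3, 31 without vehicle 1, 12 without vehicle 2 and 9 without vehicle 3. The replicate block called 0 of the 42, with 23 at an unadjusted p under 0.05 and a median of 0.71. Same-numbered libraries deviated from their group means with correlations of 0.16, 0.39 and -0.15. With so few libraries per group, these values cannot show whether same-numbered libraries were paired. Library totals moved the median of all genes from 0.02 to 0.20 and that of the 42 from 0.72 to 0.89, so that their lead over all genes was 0.69 with either. With library totals 38 were at an unadjusted p under 0.05. For none of these refits was the share of all tested genes at that level taken. With the GC and length trend removed the median was 0.69. Over all genes edgeR called 3 higher and 11 lower, and DESeq2 187 higher and 379 lower. In the simulated data the test recovered few changes of the size seen here, 1.29-fold to 2.05-fold.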
